A study of Mus musculus with 12 samples.

Results

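The CCR4-NOT complex is the main deadenylase of animal cells, and its transcripts were read here in mouse spermatids. The gene set held 10 genes, named by symbol: Cnot1, Cnot2, Cnot3, Cnot4, Cnot6, Cnot6l, Cnot7, Cnot8, Cnot10 and Tob1. A contig, the reference transcript to which nanopore reads were assigned, belonged to the set when the deposited tables paired it with 1 of these symbols. This gave 13 contigs of 7 genes, out of 12114 contigs and 7009 symbols in all. Cnot3, Cnot6l and Cnot8 matched no contig and were not analysed here, so the catalytic paralog pairs Cnot7 and Cnot8, and Cnot6 and Cnot6l, could not be compared.

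CCR4-NOT shortens poly(A) tails and so opens the way to decapping and decay of an mRNA, or holds it in a translationally silent state. CNOT1 is the scaffold on which the other subunits assemble, and 2 unrelated families of exonucleases, the CNOT7 type and the CNOT6 type, remove adenosines. TOB1 bridges the CNOT7 type of nuclease to the cytoplasmic poly(A)-binding protein, while TENT5C, the enzyme altered in these animals, works in the opposite direction and adds adenosines. Male mice that lack Cnot7 are known to be sterile with defective spermatids.

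The data were 12 libraries of nanopore direct RNA sequencing, in which each read is 1 native poly(A) RNA molecule. Round spermatids (RS) and elongated spermatids (ES) came from adult males of the Tent5c genotypes wt/wt and dcat/dcat. Both dcat alleles encode a TENT5C protein without catalytic activity in every cell that expresses it, and wt/wt males carried the unaltered gene. Each of the 4 groups had 3 libraries, each made of pooled mRNA from 3 mice, and cells were sorted on DNA stain and light scatter. The study describes isolating the germ cell types of an animal together, so RS and ES pools of a genotype share mice. It also describes sorting 1 mouse of each genotype per session and littermates in the groups, so genotypes are matched too. The sources used here do not state which library numbers share mice or sessions. Fits without a block treat the libraries as independent, and p-values measure the spread between these pools.

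Totals ran from 337287 to 1359427 counts per library, and 3 counts, taken as the floor, stood at 1.75 to 11.1 CPM for gene sums (counts per 1000000, here after TMM scaling, which corrects for library composition). The stage labels were checked against markers, and 8 of 8 ES markers such as Prm1 and Tnp1 were higher in ES in both genotypes. Of 8 RS markers, 5 fell in each genotype, and their summed level was 1412 to 1507 CPM in RS and 825 to 937 CPM in ES. Izumo1 was the 1 RS marker with a log2 change above 0 (0.31 and 0.58, neither called). Transcripts used as markers of other testis cells moved with the stage as well, and which cells they came from was not tested. The Leydig marker Insl3, which had a contig, is reported by the study in ES as well as in Leydig cells. All 4 Leydig markers that had a contig, of 9 listed, were higher in ES, and their summed level was 9.83 to 38.4 CPM in RS and 199 to 906 CPM in ES libraries. The 5 Sertoli markers with a contig, of 12 listed, were likewise higher, at 6.84 to 36.4 CPM against 196 to 421 CPM, and so was the 1 macrophage marker of 6, at 2.93 to 8.15 CPM against 36.9 to 66.3 CPM. No marker with a contig was at 0 in a whole group, and the defining markers Star, Wt1, Sox9 and Cd68 had no contig. Of 6 meiotic markers with a contig, of 12 listed, 4 fell in wt/wt and 2 fell in dcat/dcat. The part of these cells in the changes below was not tested.

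The replicate 1 libraries stood apart in all 4 groups. Against the mean of replicates 2 and 3, their median log2 CPM of 495 retained-intron contigs was lower by 0.39 to 0.59, as the differences were -0.55, -0.59, -0.39 and -0.45 in RS wt/wt, RS dcat/dcat, ES wt/wt and ES dcat/dcat. Contigs annotated for nonsense-mediated decay (509) differed by -0.47, -0.50, -0.28 and -0.45, whereas 9506 protein-coding contigs differed by 0.01 to 0.07. For this reason each result was also computed from replicates 2 and 3 alone, a choice made after these values were seen.

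Together, the 13 contigs took 0.0464 ± 0.00462% of all RS counts of wt/wt males and 0.0453 ± 0.000422% of those of dcat/dcat males (SD, n = 3 libraries). The share of ES counts was 0.0167 ± 0.00114% for wt/wt and 0.0202 ± 0.00446% for dcat/dcat (SD, n = 3 libraries). The highest ES library, at 0.0232%, lay below the lowest RS library, at 0.0429%. The member share needs no scaling between libraries, but it falls for any transcript that is diluted by the abundant protamine and transition protein mRNAs of ES. Fewer cells of a type and less RNA per cell cannot be told apart in such bulk samples.

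**Figure D1:**
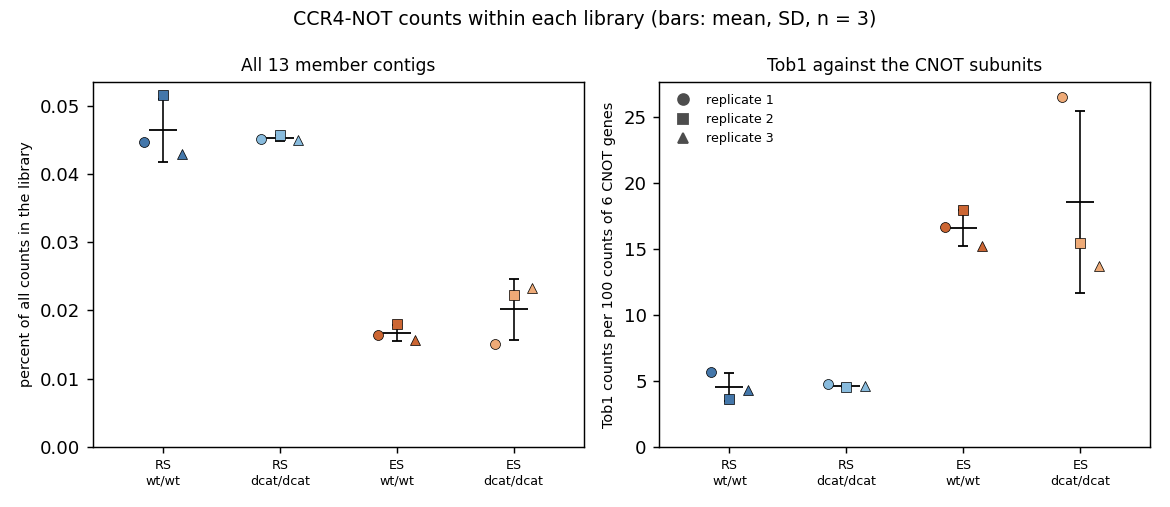
Left, percent of all counts in each library that fell on the 13 CCR4-NOT contigs; right, Tob1 counts per 100 counts of the 6 CNOT genes in the same library. Symbols mark the replicate number and bars the mean and SD of 3 libraries. The member share was lower in all 6 ES libraries than in any RS library, whereas Tob1 counts per 100 CNOT counts were higher in all 6 ES libraries (13.7 to 26.5) than in any RS library (3.64 to 5.66). Of the 13 contigs, 7 passed the count filter only through RS.

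On the TMM scale the gene sums, counts added over all contigs of a gene, were compared between stages with the edgeR quasi-likelihood test, fitted on 7706 genes or unnamed contigs with Benjamini-Hochberg adjustment (q). In wt/wt, 3 of 7 genes fell and 1 rose from RS to ES, where 22.9% of all units fell and 26.1% rose. In dcat/dcat, 1 of 7 fell and 1 rose, where 22.8% of all units fell and 26.4% rose. The median log2 change of the 7 genes was -0.84 in wt/wt and -0.65 in dcat/dcat, against -0.22 and -0.17 for all units. Cnot2 and Cnot6 passed the count filter only through their RS libraries, and 7 of 13 single contigs did so (both of Cnot2, both of Cnot7, Cnot6-203, Cnot4-203 and Cnot4-206), so low counts in ES were built into their selection.

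Directions on this scale are relative to the bulk of transcripts. With libraries scaled by total counts only, the median of all units moved by -0.83 in wt/wt and by -0.78 in dcat/dcat, and the part of calls that were higher in ES went from 53.2% to 23.0% and from 53.7% to 23.8%. All 6 CNOT genes then fell in wt/wt, where 4411 of all 7706 units fell. In dcat/dcat 5 of 6 fell, where 4208 of 7706 units did. Tob1 changed by 0.29 (q 0.354) in wt/wt and by 0.57 (q 0.0772) in dcat/dcat.

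Cnot1 encodes the scaffold of the complex. Its best covered contig, Cnot1-202 (ENSMUST00000098473), has 49 exons and lies on the minus strand of chromosome 8 at 95719451 to 95807462 (GRCm38). In replicates 1, 2 and 3, RS of wt/wt males gave 188, 165 and 267 Cnot1 counts and ES gave 40, 57 and 27. For dcat/dcat, RS gave 156, 133 and 233 counts and ES gave 35, 59 and 88. As gene sums, wt/wt RS stood at 142, 193 and 155 CPM and wt/wt ES at 84.6, 114 and 99.7 CPM, so every ES library lay below every RS library. Cnot1 fell in wt/wt with a log2 change of -0.70 (SE 0.225, q 0.0135). Without RS wt/wt replicate 2, ES wt/wt replicate 1 or ES wt/wt replicate 3 the call was lost (q 0.0610, 0.102 and 0.0504). The dcat/dcat gene sums were 152, 173 and 191 CPM at the RS stage, against 81.8, 155 and 159 CPM at the ES stage, and overlapped. The log2 change there was -0.38 (SE 0.214, q 0.153). Deviations of same-numbered libraries correlated in this comparison (r 0.52, 0.25 and 0.29 for replicates 1, 2 and 3). Replicates 2 and 3 correlated nearly as much when crossed (r 0.19 both ways), so it was mainly replicate 1 that stood apart. With the replicate number as a block the change of -0.40 passed (q 0.0485). With only units of 10 counts in every library kept, Cnot1 alone remained among the 7 genes. This filter removed no Cnot1 value, but scaling was computed anew on the units kept. The dcat/dcat change there was -0.60 (q 0.0159).

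Cnot2 and Cnot10 encode further structural subunits, of the NOT module and of the module at the other end of CNOT1. Cnot10 went from 36, 26 and 58 counts (RS) to 11, 15 and 0 counts (ES) in wt/wt, and from 24, 25 and 38 to 8, 5 and 11 counts in dcat/dcat. Its wt/wt gene sum was 30.5 ± 3.27 CPM in RS against 17.8 ± 15.8 CPM in ES (SD, n = 3). The ES wt/wt library with 0 counts was the shallowest of the 12, where the floor stood at 11.1 CPM. The dcat/dcat means were 29.0 ± 4.87 and 17.2 ± 3.58 CPM (SD, n = 3), without overlap between stages. Neither change passed, at -0.58 (95% interval -1.43 to 0.27, q 0.247) in wt/wt and -0.72 (-1.59 to 0.16, q 0.168) in dcat/dcat.

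Cnot2 was close to the floor in ES. The wt/wt libraries held 28, 20 and 24 counts of it at the RS stage and 8, 0 and 4 at the ES stage, and the dcat/dcat libraries held 27, 15 and 19, then 2, 8 and 4. The log2 changes of -0.95 (95% interval -2.18 to 0.29, q 0.196) in wt/wt and -0.96 (-2.16 to 0.23, q 0.173) in dcat/dcat did not pass. At this depth a 2-fold change of Cnot2 could not be told from no change.

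**Figure D2:**
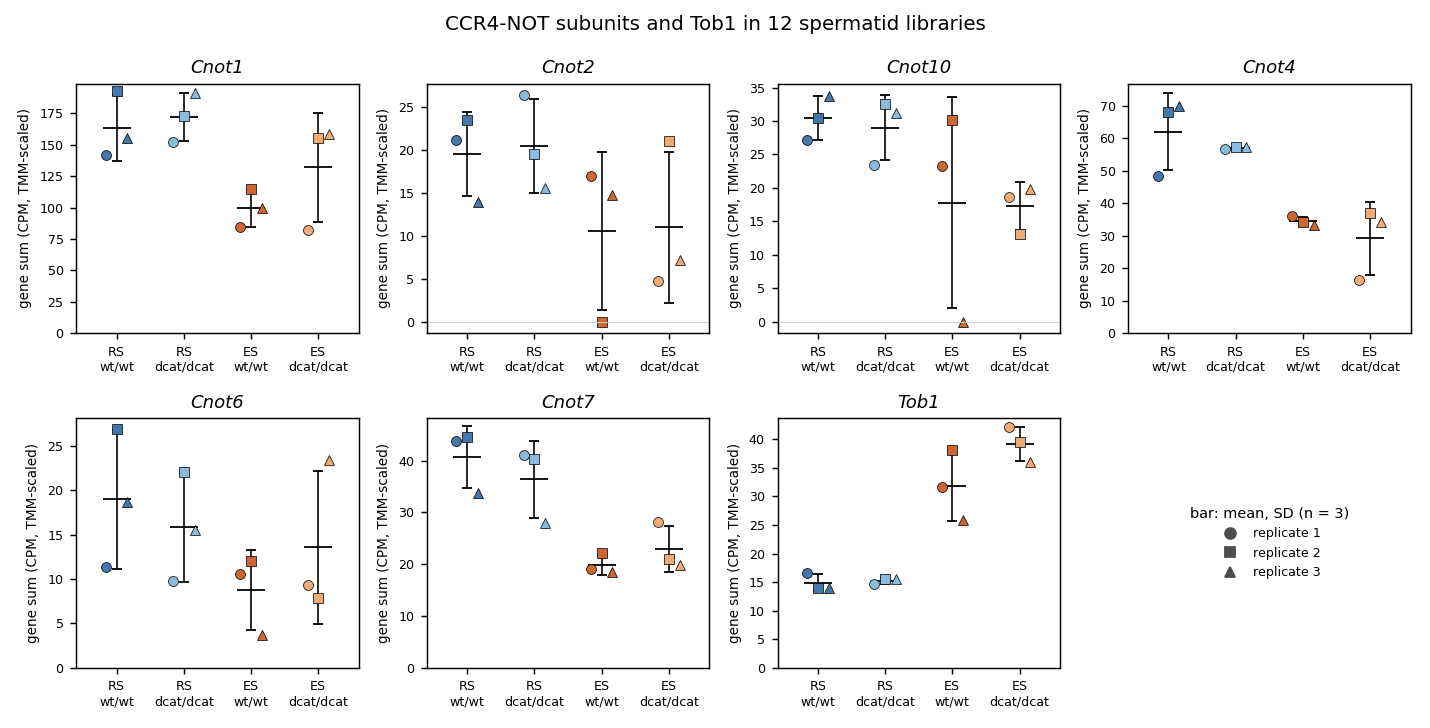
Gene sums of the 7 measured genes in CPM after TMM scaling, in 4 groups of 3 libraries each; symbols mark the replicate number and bars the mean and SD. Cnot4 and Cnot7 lay lower in every ES wt/wt library than in any RS wt/wt library, and Tob1 lay higher, between 25.8 and 42.1 CPM in ES against 14.0 to 16.6 CPM in RS.

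The catalytic subunits measured were Cnot7, an exonuclease of the CAF1 type, and Cnot6, of the CCR4 type. In wt/wt males Cnot7 had 58, 38 and 58 counts at the RS stage and 9, 11 and 5 at the ES stage. The dcat/dcat males gave 42, 31 and 34 counts, then 12, 8 and 11. As wt/wt gene sums, RS libraries lay at 43.8, 44.5 and 33.8 CPM, above all ES libraries at 19.0, 22.1 and 18.5 CPM. Cnot7 fell in wt/wt to 0.501 of its RS level (95% interval of the log2 change -1.62 to -0.38, SE 0.297, q 0.00872). The call was lost without ES wt/wt replicate 1 (q 0.0606) and with replicates 2 and 3 alone (q 0.0864). The dcat/dcat gene sums were 41.0, 40.3 and 27.9 CPM at the RS stage, against 28.1, 21.0 and 19.8 CPM later. The stages just overlapped, and the change of -0.65 (SE 0.291, unadjusted p 0.0362, q 0.0691) did not pass. It passed without RS dcat/dcat replicate 3 (-0.83, q 0.0305).

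Cnot6 had few reads and wide errors. Its only contig, Cnot6-203 (ENSMUST00000145353, chromosome 11 from 49671503 to 49712723, GRCm38, minus strand), drew 15, 23 and 32 counts from RS and 5, 6 and 1 from ES of wt/wt males. From dcat/dcat males it drew 10, 17 and 19 and then 4, 3 and 13 counts. The gene sums of both stages overlapped in each genotype. The log2 changes were -0.93 (95% interval -2.02 to 0.16, q 0.148) in wt/wt and -0.10 (-1.11 to 0.92, q 0.887) in dcat/dcat, and the latter was above 0 without RS dcat/dcat replicate 2 (0.17).

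Cnot4 encodes a ubiquitin ligase that binds the complex without being one of its stable subunits in mammals. Cnot4 counts went from 64, 58 and 120 at the RS stage to 17, 17 and 9 at the ES stage of wt/wt males, and from 58, 44 and 70 to 7, 14 and 19 in dcat/dcat males. The wt/wt gene sums were 48.4, 67.9 and 69.8 CPM before and 36.0, 34.1 and 33.2 CPM after. The dcat/dcat gene sums were 56.7, 57.2 and 57.4 CPM, then 16.4, 36.8 and 34.3 CPM. No ES library reached the level of an RS library of its genotype. Among the 6 CNOT genes of the set, Cnot4 was the 1 that fell in both genotypes, with log2 changes of -0.84 (SE 0.262, q 0.0118) in wt/wt and -0.96 (SE 0.270, q 0.00596) in dcat/dcat. The wt/wt call was lost without ES wt/wt replicate 2 (q 0.0511), and the dcat/dcat call with replicates 2 and 3 alone (-0.66, q 0.0743).

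Tob1, the adaptor between the nuclease and the poly(A)-binding protein, went the other way. Its contig Tob1-201 (ENSMUST00000041589) lies on the plus strand of chromosome 11 at 94211454 to 94215495 (GRCm38). The wt/wt libraries held 22, 12 and 24 counts of it at the RS stage and 15, 19 and 7 at the ES stage, which are 16.6, 14.1 and 14.0 CPM against 31.7, 38.2 and 25.8 CPM. The dcat/dcat libraries held 15, 12 and 19 counts, then 18, 15 and 20, which are 14.7, 15.6 and 15.6 CPM against 42.1, 39.5 and 36.1 CPM. The 6 ES libraries lay above the 6 RS libraries. Tob1 rose with a log2 change of 1.13 in wt/wt (SE 0.285, q 0.00265), or 2.18-fold, and of 1.35 in dcat/dcat (SE 0.278, q 4.48e-04), or 2.54-fold. As a part of all counts, with no scaling, Tob1 ran from 17.7 to 23.9 unscaled CPM in RS and from 20.8 to 31.6 unscaled CPM in ES, and these ranges overlapped.

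Set against the other members of the same library, Tob1 had a higher ratio in ES, and this ratio does not depend on scaling. Both sides of it moved, the denominator more. The 6 CNOT genes together had a median of 431 unscaled CPM in RS and 146 in ES. Tob1 had medians of 19.8 and 27.6 unscaled CPM, with overlapping ranges. Cnot2 and Cnot6, both in the denominator, passed the count filter only through RS. For every 100 counts of the 6 CNOT genes there were 5.66, 3.64 and 4.29 counts of Tob1 before and 16.7, 17.9 and 15.2 after the change of stage in wt/wt. The dcat/dcat libraries gave 4.73, 4.53 and 4.60 at the RS stage, then 26.5, 15.5 and 13.7. This ratio was chosen after the directions were known and carries no test. The 6 ES libraries were also those with the higher Leydig, Sertoli and macrophage sums given above, whose part in the rise of Tob1 was not tested.

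**Figure D3:**
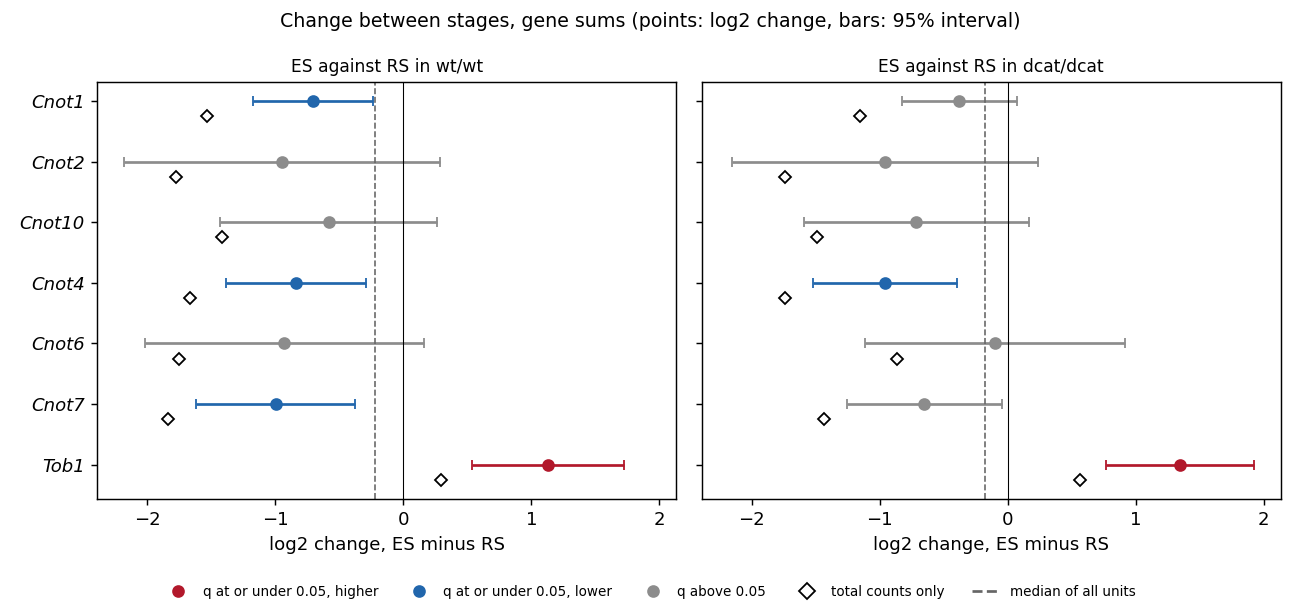
Log2 change of each gene sum from RS to ES in wt/wt (left) and dcat/dcat (right), with 95% intervals; filled colours mark genes with q at or under 0.05 and grey those above it. The dashed line is the median of all units (-0.22 and -0.17), and open diamonds give the change with total counts only, where Tob1 stood at 0.29 and 0.57 and the 6 CNOT genes lay further to the left.

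Several members were split over contigs that share most of their sequence. Cnot1-202 and Cnot1-203 (ENSMUST00000211887) share 5601 bases counted from the 3′ end of Cnot1-203. In contrast, Cnot1-216 (ENSMUST00000213006), annotated for nonsense-mediated decay, ends 705 bases upstream of Cnot1-202. The contigs of Cnot7 share 2398 bases from the 3′ end of Cnot7-203, and those of Cnot2 share 2609 from the 3′ end of Cnot2-203. A nanopore read of RNA starts at the poly(A) end, so a read shorter than the shared part cannot tell these contigs apart.

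At the level of single contigs, 11831 were tested by the same method. In wt/wt, 3 of 13 member contigs fell and 1 rose, where 16.5% of all contigs fell and 23.8% rose. Cnot1-202 fell by 0.89 on the log2 scale (q 0.0298), Cnot1-203 by 0.83 (q 0.0183) and Cnot7-201 (ENSMUST00000034012) by 1.06 (q 0.0304). Cnot7-201 passed the count filter through RS alone, and DESeq2 did not call it (adjusted p 0.0831). Without ES wt/wt replicate 2 no member contig was called, Tob1-201 included (q 0.0515). Without RS wt/wt replicate 2 or ES wt/wt replicate 3, Tob1-201 was still called, but no member contig was called lower. Cnot1-202 and Cnot7-201 were also not called without RS wt/wt replicate 1, without ES wt/wt replicate 1 or with replicates 2 and 3 alone. In dcat/dcat, 1 contig fell and 1 rose, where 16.9% of all contigs fell and 24.0% rose. The one that fell was Cnot4-203, and Tob1-201 rose in both genotypes (1.01 and 1.24).

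Cnot4 had 3 contigs, and the one that was called differs from its coding neighbour inside the transcript by a cassette exon. Cnot4-203 (ENSMUST00000114993, chromosome 6 from 35022071 to 35133689, minus strand) includes exon 11 of 12, at 35024128 to 35024340, which Cnot4-206 (ENSMUST00000202143) skips. The 2 contigs also differ at their ends, as Cnot4-206 runs from 35022065 to 35133625, and counts are of reads assigned to a contig, not of reads seen to cross a junction. The exon is 213 bases, or 71 codons, all of it coding and without a stop codon in frame, so both contigs keep the reading frame. Its sequence and the junctions that tell the contigs apart are printed to show where they differ. In the junctions, lower case is the last part of the preceding exon, common to both, and capitals are the bases that follow it.

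Cnot4 cassette exon, chr6:35024128-35024340 (GRCm38, minus strand): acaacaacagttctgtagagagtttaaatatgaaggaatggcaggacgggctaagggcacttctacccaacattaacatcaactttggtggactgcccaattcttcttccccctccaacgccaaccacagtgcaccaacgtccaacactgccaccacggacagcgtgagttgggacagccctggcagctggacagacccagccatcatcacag
Junction with the exon (Cnot4-203): ggatccccatagcagACAACAACAGTTCTG
Junction without the exon (Cnot4-206): ggatccccatagcagGTATTCCAGCATCTT

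The third contig, Cnot4-205 (ENSMUST00000200954), is annotated as a retained intron of 1 exon, 2800 bases long, and holds the sequence of the cassette exon within it. The exon lies beyond the 1362 bases that Cnot4-203 and Cnot4-206 share from the 3′ end, so only reads longer than that distance reach it.

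Cnot4-203 went from 37, 10 and 24 counts at the RS stage to 8, 0 and 0 at the ES stage of wt/wt males. In dcat/dcat males it went from 36, 12 and 16 counts to 1, 1 and 0. Over the libraries of a group, 71 counts in RS wt/wt stood against 8 in ES wt/wt, a ratio of RS over ES of 3.05 on the TMM scale (exact 95% interval 1.47 to 7.33, counting error only). In dcat/dcat, 64 counts stood against 2, a ratio of 15.6 (exact 95% interval 4.16 to 132). As Cnot4-203 passed the count filter through RS alone, these ratios describe a contig that was selected for being high in RS. The edgeR quasi-likelihood test called this contig in dcat/dcat (q 0.0123), and the call was lost without ES dcat/dcat replicate 3 (q 0.0723). In wt/wt it was not called (-1.60, q 0.146), and 1 library, ES wt/wt replicate 1, held all 8 of its ES counts. It was called without that library (q 0.0114) and with the replicate number as a block (-1.70, q 0.0106).

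Cnot4-206, without the exon, went from 17, 23 and 40 counts to 5, 11 and 5 in wt/wt males, and from 13, 15 and 26 to 4, 3 and 9 in dcat/dcat males. Its log2 changes of -0.40 (q 0.442) and -0.73 (q 0.185) did not pass. Among the counts of both contigs, those with the exon made up 68.5% in replicate 1 of RS wt/wt (37 of 54, Wilson 95% interval 55.3 to 79.3%), but 30.3% and 37.5% in replicates 2 and 3. In RS dcat/dcat the shares were 73.5% (36 of 49, 59.7 to 83.8%), 44.4% and 38.1%. Both replicate 1 libraries of RS therefore lay above the other 4 RS libraries.

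In ES the share with the exon was 61.5% (8 of 13, Wilson 95% interval 35.5 to 82.3%) in replicate 1 of wt/wt. Replicates 2 and 3 together gave 0 of 16 counts (Wilson 95% interval 0 to 19.4%). Replicates 2 and 3 of RS wt/wt gave 35.1% (34 of 97, 26.3 to 45.0%). Over all 3 libraries the wt/wt shares were 47.0% in RS (39.2 to 55.0%) and 27.6% in ES (14.7 to 45.7%), with overlapping intervals. Over all 3 dcat/dcat libraries, 64 of 118 counts (54.2%, 45.3 to 63.0%) were on the contig with the exon in RS, against 2 of 18 (11.1%, 3.10 to 32.8%) in ES. Replicates 2 and 3 of dcat/dcat gave 40.6% in RS (29.8 to 52.4%) and 1 of 13 (7.69%, 1.37 to 33.3%) in ES, whose intervals overlapped. These intervals cover counting error only.

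**Figure D4:**
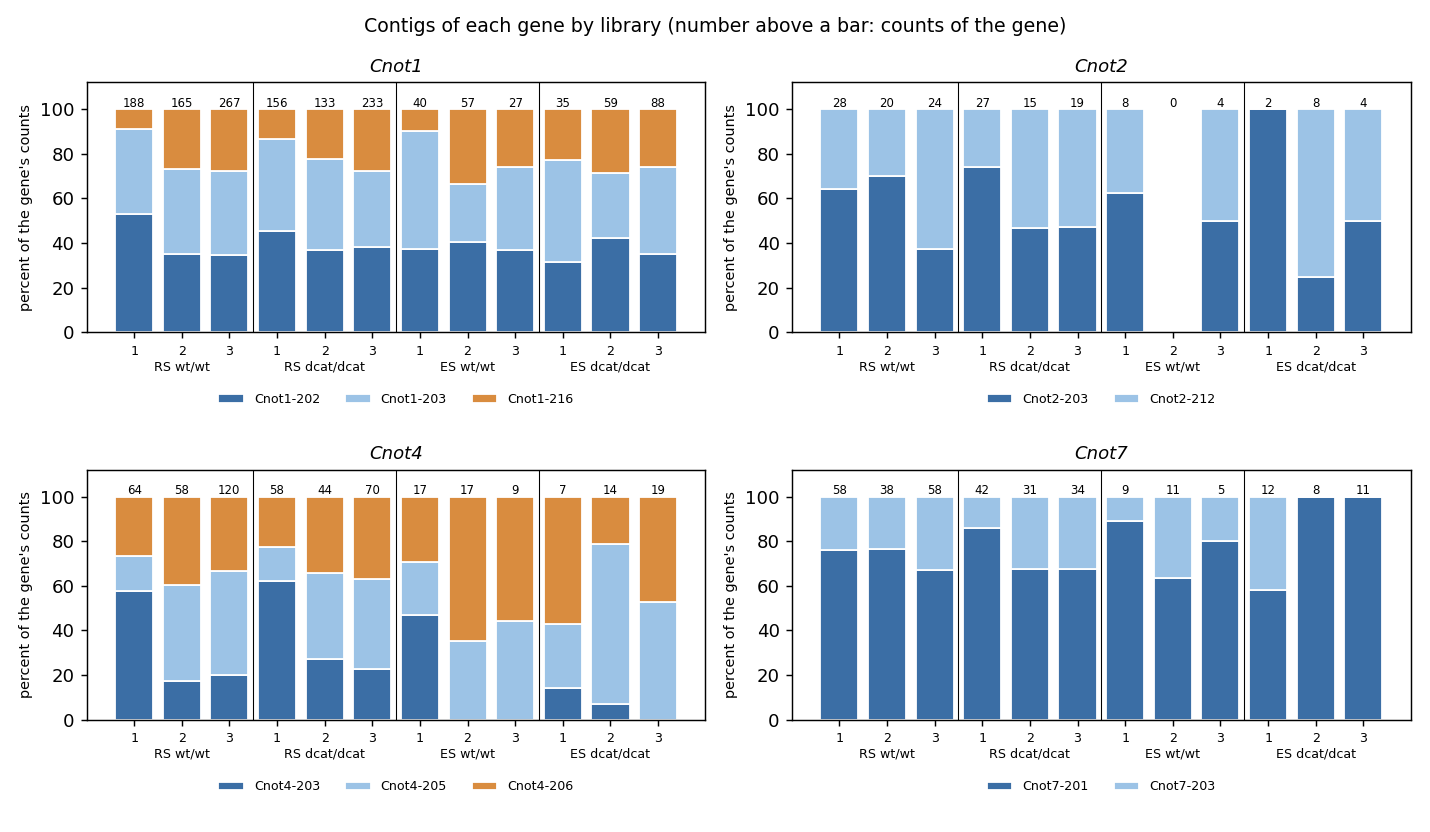
Percent of each gene's counts on each of its contigs, for 12 libraries; the number above a bar is the gene's count in that library. Cnot4-205, the retained-intron contig, took 15.5 to 28.6% of Cnot4 counts in the 4 replicate 1 libraries and 35.3 to 71.4% in the other 8, without overlap, and Cnot4-203 was at 0 in 3 ES libraries.

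A change in the use of contigs within a gene was tested by comparing each contig with the rest of its gene. None of the 10 member contigs that have a partner passed in wt/wt, where 1.19% of all 6722 contigs did, nor in dcat/dcat, where 1.07% did. At an unadjusted p under 0.05 there were 0 in wt/wt and 1 in dcat/dcat, by the edgeR quasi-likelihood test of contig use. That one was Cnot4-203, with a log2 change of -2.76 relative to the other Cnot4 contigs (unadjusted p 0.0124, q 0.368). With the replicate number as a block it passed (-2.70, q 0.0139). As Cnot4-203 passed the count filter through RS alone, low use in ES was built into its selection. Cnot1-202, Cnot1-203 and Cnot1-216 moved alike, with relative changes of -0.11 to 0.28 in dcat/dcat and of -0.07 to 0.17 in wt/wt, none of which passed.

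Among the retained-intron and decay-annotated contigs of the members, Cnot4-205 alone had shares that did not overlap between the replicate 1 libraries and the others, and no test was made. Cnot1-216 took 9.04 to 22.9% of Cnot1 counts in replicate 1 libraries and 22.6 to 33.3% in the others, a slight overlap. Cnot2-212 (ENSMUST00000169576), also annotated for nonsense-mediated decay, took 0 to 37.5% and 30.0 to 75.0%, which overlap, on few counts, with no count of the gene in ES wt/wt replicate 2.

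The catalytic activity of TENT5C was asked about by comparing dcat/dcat with wt/wt within each stage. No member changed. In RS, 0 of 7 gene sums and 0 of 13 contigs were called by edgeR, none had an unadjusted p under 0.05, and DESeq2 called 0 as well. The same counts were 0 in ES and for the interaction of stage and genotype. Over all genes and contigs the share called was 0% in each of these comparisons, with 102 and 289 gene units at an unadjusted p under 0.05 in RS and ES. In RS the log2 differences of the 7 genes ran from -0.25 to 0.10, with 95% intervals that reached from -1.06 to 0.98, and in ES from -0.24 to 0.59, with intervals from -1.47 to 1.86. A p that misses the threshold does not show that the genotypes were alike.

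Among these, Cnot1 in ES had the smallest p. Its ES level was 99.6 ± 14.9 CPM for wt/wt and 132 ± 43.4 CPM for dcat/dcat males (SD, n = 3), a log2 difference of 0.41 (95% interval -0.10 to 0.92, unadjusted p 0.107). Tob1 differed by 0.03 in RS (-0.54 to 0.61) and by 0.25 in ES (-0.34 to 0.85). For Cnot7 the differences were -0.16 in RS (-0.63 to 0.31) and 0.18 in ES (-0.57 to 0.94), and for Cnot4 -0.12 (-0.55 to 0.32) and -0.24 (-0.91 to 0.44). The interaction of Cnot1, the difference between its change in dcat/dcat and in wt/wt, was 0.33 (SE 0.312, unadjusted p 0.307), so the fall called in wt/wt was not shown to differ from the change in dcat/dcat.

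Genes that work with CCR4-NOT were read from the same fit. Of the 25 measured genes on these 5 lists, 14 passed the count filter only through RS libraries, among them Cnot11, Cnot9, Toe1, Btg4, Dnd1 and Lsm14b, and 2 only through ES libraries, Btg2 and Cpeb3. Such a gene was selected for being high in that stage, so its call is a description. Of the other subunits, Cnot11, the partner of Cnot10, was lower in ES in both genotypes (-1.86, SE 0.415, q 9.14e-04 in wt/wt and -1.18, q 0.0218 in dcat/dcat). Its counts went from 38, 35 and 39 in RS wt/wt to 4, 3 and 3 in ES wt/wt. Cnot9 did not pass, at -1.31 (q 0.0953) and -0.53 (q 0.441). Of 9 genes listed as other deadenylases, 3 had a contig. Among these, 2 fell and 0 rose in each genotype, beside 22.9% (wt/wt) and 22.8% (dcat/dcat) of all units that fell. Those that fell were Toe1, which trims tails of small nuclear RNAs (-1.40, q 0.00103 and -1.35, q 0.00109), and Angel1, a relative of the CNOT6 type of nuclease (-0.66, q 0.0176 and -0.85, q 0.00305). The stages of Angel1 overlapped in wt/wt, with ES replicate 3 at 162 CPM and RS replicate 3 at 144 CPM.

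The TOB/BTG family, whose members bind the CNOT7 type of nuclease, had 3 of 5 listed genes. Btg1 rose in both genotypes on the TMM scale (0.58, q 0.00883 and 0.73, q 0.00178), but with total counts only its changes were -0.24 and -0.05 and not called. Btg2, which passed the filter through ES dcat/dcat alone, was called there (q 2.43e-05), with counts of 0, 1 and 1 in RS and 4, 10 and 11 in ES, and not in wt/wt (q 0.0866). Btg4, the member known from oocytes, did not pass in either genotype (q 0.870 and 0.722).

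Of 27 listed RNA-binding partners that can recruit the complex, 12 were measured. In wt/wt 3 rose and 0 fell, where 26.1% of all units rose and 22.9% fell, so the number that rose was near the background. In dcat/dcat 4 rose and 1 fell, where 26.4% of all units rose and 22.8% fell. Samd4, the mouse Smaug protein that recruits CCR4-NOT to stem-loops, rose from 149 to 552 CPM in wt/wt (1.88, SE 0.157, q 7.13e-09) and from 172 to 549 CPM in dcat/dcat (1.67, q 3.05e-08). Its paralog Samd4b rose from 53.3 to 180 CPM (1.76, q 4.27e-07) and from 54.9 to 177 CPM (1.67, q 9.91e-07). With total counts only both still rose, by 0.89 to 1.05. The third that rose in both genotypes was Cpeb3, which binds cytoplasmic polyadenylation elements (3.06, q 2.42e-05 and 2.75, q 4.66e-05), with few counts at the RS stage (2, 7 and 8 for wt/wt, 3, 4 and 12 for dcat/dcat). In dcat/dcat Zfp36l1, a binder of AU-rich elements, rose as well (1.53, q 0.00701), but not with total counts only (q 0.131). Cpeb3 and Zfp36l1 were named after their values were seen, for being so few. The 1 that fell was Dnd1, a partner of the NANOS proteins, with counts of 12, 4 and 10 in RS dcat/dcat and 2, 0 and 1 in ES dcat/dcat (q 0.0459). With DESeq2 size factors in place of TMM this call was lost (q 0.0538).

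**Figure D5:**
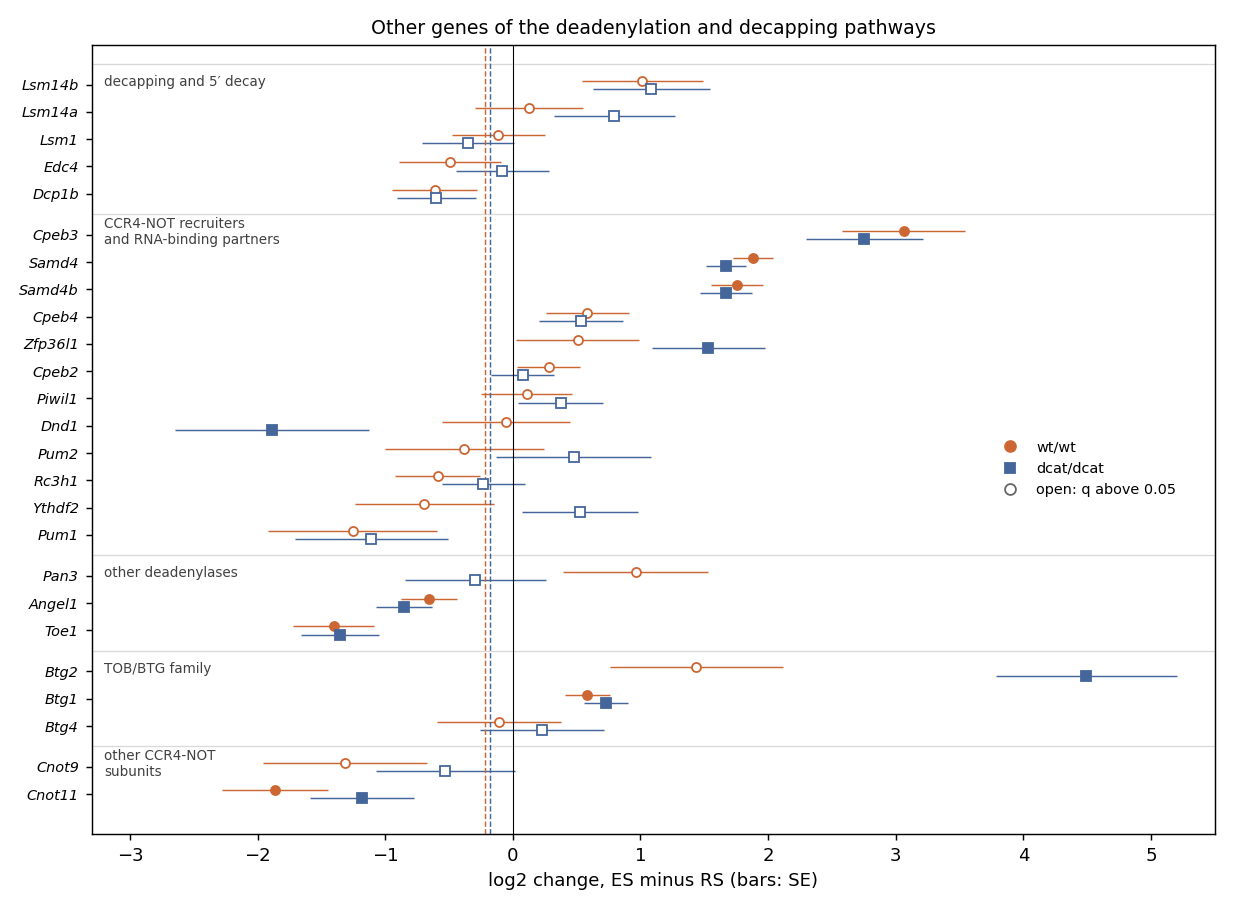
Log2 change from RS to ES of the measured genes of 5 pathway lists in wt/wt (circles) and dcat/dcat (squares), with SE as bars; filled symbols have q at or under 0.05, and dashed lines are the medians of all units. Samd4, Samd4b and Cpeb3 lay to the right in both genotypes, and Cnot11, Toe1 and Angel1 to the left.

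The median log2 change of this list was 0.20 in wt/wt and 0.50 in dcat/dcat, beside -0.22 and -0.17 for all units. Of 12 listed decapping and 5′ decay genes, 5 were measured and 0 passed in either genotype by edgeR. The smallest q belonged to Lsm14b, a processing body protein (1.02, unadjusted p 0.0446, q 0.0820 in wt/wt and 1.08, unadjusted p 0.0286, q 0.0566 in dcat/dcat), and the next to Dcp1b, a decapping cofactor (-0.61, q 0.136 and -0.60, q 0.114). Between genotypes, 0 genes of these 5 lists were called by edgeR at either stage, nor was a difference between the genotypes' stage changes.

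Among 10988 contigs of other genes, the 3 whose log2 CPM over the 12 libraries was most like that of Cnot1-202 were Nutm1 (ENSMUST00000043970, Pearson r 0.971), Svip (ENSMUST00000098414, 0.962) and Zpbp2 (ENSMUST00000081033, 0.953). The 12 points share their libraries and fall into 2 stages, so these values describe a like contrast between stages and carry no test.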

How the data were processed

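Nanopore direct RNA sequencing covered 12 libraries in 4 groups. Per the study's methods, the authors called bases with Guppy, aligned reads with minimap2 (2.20-r1061 in the submitters' processing notes) to GENCODE vM17 transcripts of GRCm38, and kept reads whose poly(A) tail passed Nanopolish, so reads with a failed tail are missing. The methods also describe a minimum of reads per contig, which would leave out contigs with few reads. The deposited count table holds whole-number counts per contig, with no normalization. The authors' DESeq2 tables hold log2 fold changes and adjusted p-values, which were not used; only their symbols were. Positions came from GENCODE vM21 of the same build, in which all 13 member contigs were found.

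Members, gene lists and tests were chosen with earlier results of these data known. The tests used the quasi-likelihood method of edgeR 4.0.16 (R 4.3.3, TMM, 1 mean per group, all 12 libraries), for contigs and for sums by symbol, where a unit needed 10 counts or more in 2 libraries of some group. Benjamini-Hochberg adjustment ran over all units, with a threshold of 0.05. SE is the log2 change divided by the square root of F. Contig use was tested with diffSpliceDGE of edgeR, and DESeq2 1.42.0 was an alternative. Likeness used log2 CPM with a prior count of 2. The tests were checked on simulated counts that were independent between libraries. These held no offset of replicate 1 and no shared mice, so the check did not cover those features of the data.

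Named were all member genes, contigs that passed a test or held over 10% of their gene, and from each list up to 2 genes per direction with the smallest q. Replicate numbers paired libraries in RS between genotypes (r of deviations 0.38 to 0.70) and in dcat/dcat between stages (0.25 to 0.52). They did not in ES (0.03 to 0.45) or in wt/wt between stages (-0.09 to 0.40). Replicates 2 and 3 were only weakly told apart. Crossing them gave r 0.23 and 0.27 in RS between genotypes, and 0.19 both ways in dcat/dcat between stages. Depth is given in the report, and floors cover counting error only.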

Additional observations from a re-analysis of the deposited data

How the results depend on the processing

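Depth is one limit, since most members had under 30 counts in an ES library, and assignment among contigs with a shared 3′ end adds an error that counts do not show. With total counts only, 10 member contigs were called between stages in wt/wt and 8 in dcat/dcat, and 6 and 5 gene sums, all lower in ES. In that setting 5411 (wt/wt) and 4995 (dcat/dcat) of all 11831 contigs fell. Of 7706 gene units, 4411 and 4208 fell. With at least 10 counts in every library only 2 contigs and 1 gene were left, and 2 contigs and 1 gene were called in each genotype. With replicates 2 and 3 alone, chosen after seeing the data, 1 gene sum was called in dcat/dcat (Tob1). There 1 contig changed its use (Cnot7-203, q 0.0439), which passed the count filter through RS alone. The genotype differences of Cnot2 in RS (-0.034), Cnot4 in ES (0.059) and Cnot7 in ES (-0.035) changed sign in that setting. The cause of these moves was not tested, except that the stricter filter left fewer units to test and to scale on.

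With the replicate number as a block, 6 contigs were called between stages in wt/wt (Cnot4-203 with q 0.0106 and Cnot4-205 with q 0.0295 in addition) and 4 gene sums. In dcat/dcat 2 contigs and 3 gene sums were called, and 1 contig changed its use (Cnot4-203, which passed the count filter through RS alone). The block changed no other call of a member, and 0 were called between genotypes or in the interaction. By their deviations, the numbers did not pair libraries between stages in wt/wt (r from -0.09 to 0.40), although the stages share mice. The planned ratios of Cnot8 over Cnot7 and of Cnot6l over Cnot6 were not run, since 3 genes had no contig.

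Leaving out 1 library gave 0 to 4 called contigs in wt/wt and 1 to 3 in dcat/dcat, and 2 to 4 and 2 to 3 gene sums. These results changed sign when 1 library was left out, with the range of their log2 change: between stages in dcat/dcat, Cnot1-216 (-0.49 to 0.11), Cnot4-205 (-0.65 to 0.16), Cnot6-203 (-0.88 to 0.048) and Cnot6 (-0.77 to 0.17); between genotypes in RS, Cnot1 (-0.015 to 0.21), Cnot10 (-0.17 to 0.054), Cnot2 (-0.14 to 0.29), Cnot6 (-0.52 to 0.024), Cnot7 (-0.31 to 0.021) and Tob1 (-0.039 to 0.11); between genotypes in ES, Cnot10 (-0.66 to 0.27), Cnot2 (-0.70 to 0.91), Cnot4 (-0.44 to 0.032) and Cnot6 (-0.15 to 0.84). None of them was called.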
